A study of Mus musculus with 36 samples.

Results

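The 48 probes described here are fibroblast-high array probes whose level hardly moved when secondary fibroblasts were given doxycycline for up to 6 days. They were chosen from the 25030 probes of the authors' log10 table by their measured values. A probe had to average at least 2.5 in the primary fibroblasts without tamoxifen and lie at least 0.9 (a 7.94-fold difference) above the mean of the iPS and ES arrays. In secondary fibroblasts without tamoxifen, its doxycycline-treated mean had to stay within 0.1 (1.26-fold) of the untreated mean on each of days 1, 3 and 6. Of 1259 probes that met the conditions on fibroblast level, 48 met the third; of the other 1211, 828 left the band downwards only, 245 upwards only and 138 both ways. Nothing is supported with the values that chose the probes, and comparisons that contain those arrays are named as such where they are given.

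The 36 arrays, hybridised with 2 dyes, fall into 18 groups of 2. Secondary mouse embryonic fibroblasts (MEFs) came from clone #1 of a C57Bl/6 x 129 hybrid carrying KOS-ZERT2 transgenes and were grown in ES medium with LIF, a cytokine that maintains mouse ES cells. They were sampled on days 1, 3 and 6 with doxycycline and tamoxifen (Dox+Tmx+), doxycycline alone (Dox+Tmx-), tamoxifen alone (Dox-Tmx+) or neither (Dox-Tmx-), with doxycycline at 1.5 µg/ml and tamoxifen at 200 nM. Primary MEFs, labelled as an F1 hybrid from V6.5 cells and grown in MEF medium, carried a Zscan4ERT2 transgene (ZERT2 MEFs) or were wild, each with and without tamoxifen. Induced pluripotent stem (iPS) cells were clone #2 with KOS-ZERT2 transgenes, and embryonic stem (ES) cells were the v6.5 line. The protocols of both wild MEF arrays labelled Tmx+, and of Dox-Tmx+ day 1 replicate 2, mention no tamoxifen. Nothing in the labels tells whether a group's 2 samples came from separate cultures, so the p-values measure the spread between these samples, which may be technical.

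In reprogramming, a fibroblast shuts down genes of its mesenchymal identity and later activates the network that holds pluripotent cells in self-renewal. Secondary fibroblasts derive from cells that already carry the inducible factors, so that doxycycline switches the factors on throughout the culture. Zscan4 is a gene expressed in brief bursts in mouse ES cells and in early embryos, and fusion to ERT2, a modified hormone receptor domain, makes a protein respond to tamoxifen. Extracellular matrix, contractile and mesenchymal transcription factor genes are typical of fibroblasts. The files pair these probes with no gene name, so it cannot be said which of those classes the 48 belong to, and the probes are called by their identifiers. Fibroblast and pluripotent marker genes could not be looked up for the same reason. The cell labels were not checked, because the levels of these probes were fixed by the choice under those same labels.

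Levels below are log2 ratios of the sample over a common reference RNA, a pool from mouse cell lines mixed with ES cell RNA, and differences are on the same log2 scale. Tests were made with limma on all 33099 probes that passed a brightness filter, with Benjamini-Hochberg adjustment and calls at an adjusted p under 0.05; the filter kept 48 of the 48. Wherever possible the tests use the Tmx+ arrays, which the choice of probes did not use. Within a day, Dox+ and Dox- arrays of secondary MEFs lay on separate slides, so doxycycline and slide cannot be told apart there. The Tmx+ and Tmx- arrays of 1 day and doxycycline state shared a slide, so a slide effect that moved the arrays used in the choice would move the tested ones too. Comparisons over time and between secondary and primary MEFs also cross slides. Each array had 54.9% to 77.1% of its probes well above background.

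In the authors' log10 table the 48 probes had primary MEF levels with a lowest value of 2.59, a median of 3.70 and a highest value of 5.68. Their pluripotent levels had a lowest value of 1.22, a median of 2.48 and a highest value of 4.46. The difference between them had a median of 1.15 (range 0.90 to 2.29), against 1.36 (0.90 to 3.63) for the other 1211 fibroblast-high probes. The 5 largest differences belonged to Z00027602-1 (2.29), Z00031528-1 (1.94), Z00024092-1 (1.62), Z00048648-1 (1.58) and Z00017812-1 (1.55). In that table the median effect of doxycycline without tamoxifen was -0.01, -0.02 and -0.03 on days 1, 3 and 6 for the 48 probes, and -0.09, -0.27 and -0.32 for the other 1211.

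The edges of the set were close. Nearest to the band inside it were Z00001616-1, Z00013310-1 and Z00016626-1, with largest doxycycline effects of 0.0989, 0.0982 and 0.0979. Nearest outside were Z00024077-1, Z00043234-1 and Z00049818-1, at 0.1009, 0.1021 and 0.1044. On the difference between primary MEFs and pluripotent cells, Z00017386-1 (0.9032), Z00019202-1 (0.9040) and Z00036577-1 (0.9188) were just inside, against Z00052449-1 (0.8928), Z00034104-1 (0.8790) and Z00020764-1 (0.8767) just outside. On primary MEF level, Z00048043-1 (2.591), Z00050744-1 (2.745) and Z00024629-1 (2.784) were just inside, against Z00025510-1 (2.246), Z00063326-1 (2.186) and Z00045827-1 (2.140) just outside.

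The 60-base probe sequences of the set had a median GC content of 43.3% (28.3 to 55.0%), against 41.7% for the other fibroblast-high probes and 43.3% for all probes of the table. The polyadenylation hexamers AATAAA or ATTAAA, which mark the 3′ ends of transcripts, occurred on the probe strand in 8 of 48 probes (16.7%), in 165 of 1211 other fibroblast-high probes (13.6%) and in 11.1% of all. On the opposite strand they occurred in 2.08%, 5.95% and 6.04%. These shares are descriptions.

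With 1 exception, the probes stayed above pluripotent cells in every MEF culture, though not all at the level of primary MEFs. In 47 of 48, each of the 32 MEF arrays was above each of the 4 iPS and ES arrays. The 4 iPS and ES arrays and the Tmx- arrays among the 32 were used in the choice. This separation is therefore set in part by the choice and is given as a description. All 48 were well above background on all 32 MEF arrays and none was saturated. In iPS and ES cells, 34 were well above background on all 4 arrays and 6 on none. Over the 12 secondary MEF groups a probe's means spanned 0.84 at the median (range 0.27 to 2.11), against 0.25 (0.03 to 1.23) over the 4 primary MEF groups. A span is the largest minus the smallest group mean. It widens with the number of groups, and the 12 also cover 3 days, so the spans are not on equal terms. Set against the mean of the 4 primary MEF groups, the median of the 48 probes for days 1, 3 and 6 was -0.38, -0.23 and -0.03 in Dox+Tmx+ cultures. In Dox-Tmx+ cultures it was -0.36, -0.15 and 0.04. In Dox+Tmx- cultures it was -0.34, -0.16 and -0.04, and in Dox-Tmx- cultures -0.48, -0.14 and -0.04. The median lay at -3.40 in both iPS and ES cells, far below every MEF group, a gap that the choice required for the primary MEFs without tamoxifen. The median SD between the 2 arrays of a group was 0.04 (0.02 to 0.08).

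The exception, Z00068002-1, was at the level of pluripotent cells in secondary MEFs. It read -2.97 and -2.96 in Dox+Tmx+ cultures and -2.86 and -2.85 in Dox-Tmx+ cultures of day 6. In primary MEFs labelled Tmx+ it read 0.67 and 0.59 (ZERT2) and 0.52 and 0.53 (wild). In pluripotent cells it read -2.74 and -2.82 (iPS) and -2.86 and -2.85 (ES). The 24 secondary arrays lay between -3.00 and -2.66, at the level of pluripotent cells and below all 8 primary arrays. Day 1 Dox-Tmx+ secondary MEFs were 9.76-fold below Tmx+ primary MEFs (log2 difference -3.29, SE 0.04, limma adjusted p = 1.5e-25). The choice required a high level in the Tmx- arrays of the same primary lines. A lower level elsewhere therefore follows in part from the choice, which limits this p-value. For this probe the steadiness under doxycycline is that of a transcript already low without it, which goes against the name of fibroblast transcripts being kept.

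The first comparison asked whether the probes also held their level under doxycycline in cultures with tamoxifen, on arrays the choice had not used. Those arrays shared slides with the ones used in the choice, which held the same contrast without tamoxifen within 0.1 in log10. Small changes and low shares of calls here therefore follow in part from the choice. The 48 probes moved little on each day, and none changed by 2-fold or more. Of all 33099 probes tested, 2286, 4587 and 4702 did so on days 1, 3 and 6. On day 1, 6 of the 48 were called higher and 15 lower with doxycycline; the counts were 6 and 14 on day 3, and 9 and 13 on day 6. Of all probes tested, 23.1% were called higher and 22% lower on day 1 (45.1% in either direction). On day 3 the background was 32.9% higher and 27.7% lower (60.7%), and on day 6 it was 31.1% higher and 28% lower (59.1%). Without replacement of outlying local backgrounds, a step of the processing, the day 3 counts were 2 higher and 9 lower. Earlier work on these files found that this setting failed on 2 arrays, which limits what it shows here and below. The members' shares (12.5% and 31.2%, 12.5% and 29.2%, 18.8% and 27.1%) were thus below the background among rising calls on all 3 days; the share of falling calls was above it on day 1 and close to it on days 3 and 6.

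The other 1211 fibroblast-high probes are those that left the doxycycline band, so a smaller change in the 48 follows from the choice and is given as a description. Median log2 changes of the 48 were -0.09 (range -0.44 to 0.39) on day 1, -0.05 (-0.57 to 0.50) on day 3 and -0.06 (-0.52 to 0.58) on day 6. For the other 1211 the medians were -0.25, -0.77 and -1.05, and 306, 624 and 724 of them changed by at least 2-fold. Over all probes tested the medians were -0.01, 0.00 and 0.00. In the same scanner values, the contrast used in the choice (doxycycline without tamoxifen) called 10 higher and 8 lower on day 1, where the background was 23.5% higher and 22.8% lower (46.3% in either direction). It called 7 and 5 on day 3 (background 31% and 27%, 58% in either direction) and 12 and 9 on day 6 (28.9% and 25.5%, 54.4% in either direction). Nothing is read from these counts, since the choice of probes used that contrast.

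Over the 3 days 11 of the 48 probes were called on no day, 1 rose on all 3 days, 1 fell on all 3 and 5 were called in opposite directions on different days. The other 30 were called on 1 or 2 days in 1 direction. Such patterns were not counted over all probes, so these numbers are descriptions from which nothing is read. The probe that fell on all 3 was Z00017717-1. On days 1, 3 and 6 it read -2.09 and -2.10, -1.97 and -1.99, and -1.75 and -1.80 in Dox+Tmx+ cultures. Dox-Tmx+ cultures read -1.83 and -2.02, -1.79 and -1.83, and -1.29 and -1.22. The Dox+ arrays were below the Dox- arrays on each day, most on day 6 (log2 change -0.52, SE 0.06, limma adjusted p = 4.14e-08).

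The probe that rose on all 3 days was Z00023409-1, whose direction depends on the scaling. It read 2.44 and 2.38, 2.93 and 2.77, and 2.94 and 2.92 in Dox+Tmx+ cultures of days 1, 3 and 6, against 2.15 and 2.07, 2.45 and 2.33, and 2.47 and 2.42 in Dox-Tmx+ cultures. The change was 0.49 on day 6 (SE 0.06, limma adjusted p = 3.22e-07), but -0.05 in the authors' log10 table and in Agilent's own ratio (adjusted p = 0.845 and 0.764), and -0.08 in both on day 3. Z00024629-1 likewise rose on day 6, with 2.39 and 2.26 in Dox+Tmx+ against 1.49 and 2.01 in Dox-Tmx+ cultures (0.58, SE 0.11, limma adjusted p = 7.36e-05), and was -0.08 in both other scalings. Z00009515-1 read 3.34 and 3.42 in Dox+Tmx+ against 3.07 and 2.68 in Dox-Tmx+ cultures of day 6 (0.50, SE 0.08, limma adjusted p = 1.23e-05), and 0.53 in the authors' log10 table. The choice was made in that table, where the same contrast without tamoxifen had to be small. Across the 48 probes the table and Agilent's own ratio correlated at 0.997, so they are not separate checks. Small doxycycline effects in either of them, here and below, follow in part from the choice.

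Among probes lower with doxycycline, Z00076690-1 and Z00017812-1 changed most on day 3. Z00076690-1 read 2.47 and 2.22 in Dox+Tmx+ against 3.01 and 2.82 in Dox-Tmx+ cultures (-0.57, SE 0.08, limma adjusted p = 8.55e-07), which missed the threshold in Agilent's own ratio (-0.48, adjusted p = 0.0988) and without background replacement (adjusted p = 0.105). Z00017812-1, one of the brightest relative to the reference, read 2.85 and 2.91 in Dox+Tmx+ against 3.44 and 3.32 in Dox-Tmx+ cultures (-0.50, SE 0.08, limma adjusted p = 6.82e-06), which missed the threshold in Agilent's own ratio (-0.37, adjusted p = 0.394). On day 6 it read 2.99 and 2.90 against 3.48 and 3.36 (-0.47, SE 0.08, limma adjusted p = 1.44e-05), but only -0.17 in the authors' log10 table and in Agilent's own ratio (adjusted p = 0.28 and 0.726).

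The called probes named next had Dox+Tmx+ and Dox-Tmx+ arrays that did not overlap. On day 1 these were Z00013310-1 (-0.44), Z00063889-1 (-0.43), Z00016626-1 (-0.40) and, upwards, Z00019202-1 (0.39), Z00024629-1 (0.36) and Z00023409-1 (0.30). The call of Z00024629-1 was lost without Dox-Tmx+ replicate 2 (adjusted p = 0.103), without Dox+Tmx+ replicate 1 (0.123) and without background replacement (0.449). That of Z00023409-1 was lost in Agilent's own ratio (adjusted p = 0.108), in the authors' table (0.114) and without background replacement (0.569). On day 3 Z00073971-1 rose by 0.50 and Z00009515-1 by 0.25, the second missing the threshold in the authors' table (0.08, adjusted p = 0.276), while Z00021198-1 changed by -0.38 (adjusted p = 0.149 without background replacement). On day 6 Z00074801-1 read 0.08 and 0.11 in Dox+Tmx+ against 0.41 and 0.56 in Dox-Tmx+ cultures (-0.39, SE 0.06, limma adjusted p = 6.1e-06). Averaged over the 3 days, 8 of 48 rose and 20 fell (background 35.3% higher, 32.8% lower, 68.1% in either direction), with a median of -0.06. With slide as a random block, 8 were called (2 higher, 6 lower) in place of 28. Means over days are named only for called probes whose arrays did not overlap, in the same direction, on each of the 3 days. The largest of these were 0.42 for Z00023409-1 (0.04 in the authors' table), 0.31 for Z00009515-1, -0.35 for Z00076690-1 (adjusted p = 0.0564 in Agilent's own ratio and 0.0651 without background replacement), -0.28 for Z00017717-1 and -0.27 for Z00001616-1.

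Tamoxifen was compared within slides. The Tmx- arrays in these comparisons were used in the choice, so the values are descriptions, the counts are limma calls from which nothing is read, and no p-value is given for a single probe. Beside doxycycline, averaged over the 3 days, 3 of the 48 were higher and 8 lower, against a background of 8.8% higher and 4.43% lower (13.2% in either direction). The members' median was -0.06, against -0.07 for the other 1211 fibroblast-high probes, of which 57 were higher and 315 lower, and 0.00 for all probes. Without background replacement 1 of the 48 was higher and 5 lower. By day, no probe was called on day 1 (background 0.275% higher and 0.103% lower, 0.378% in either direction), 1 was higher and 3 were lower on day 3 (background 5.2% and 2.14%, 7.34% in either direction), and 3 were higher and 2 lower on day 6 (6.82% and 2.43%, 9.24% in either direction).

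The largest tamoxifen difference beside doxycycline was that of Z00031528-1. On days 1, 3 and 6 it read 1.47 and 1.40, 1.39 and 1.38, and 1.37 and 1.31 in Dox+Tmx+ cultures. Dox+Tmx- cultures read 1.58 and 1.58, 1.50 and 1.68, and 1.87 and 1.74. Every Tmx+ array was below every Tmx- array (mean difference -0.27, SE 0.05). The mean difference of Z00017717-1 was -0.21, and that of Z00076690-1 was -0.16 (-0.10 in the authors' table). That of Z00049789-1 was 0.15 (SE 0.03), with 0.61 and 0.56 in Dox+Tmx+ against 0.46 and 0.39 in Dox+Tmx- cultures of day 6.

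Without doxycycline, none of the 48 passed the threshold in limma's test for tamoxifen (background 0%). At an unadjusted p under 0.05 there were 11 of 48 (22.9%), against 4239 of all probes (12.8%). The authors' table gave 1 call. The count of 0 was not kept when Dox-Tmx+ day 6 replicate 1 was left out, which leaves replicate 2 alone in that group. In Z00063889-1 replicate 2 read 1.10, away from replicate 1 (1.62) and from the Dox-Tmx- arrays of day 6 (1.64 and 1.59). The members' median was 0.02 (range -0.18 to 0.21).

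Levels of most of the 48 probes were higher at the later times. From the Tmx+ arrays without doxycycline, 30 of the 48 were higher and 9 lower on day 6 than on day 1 (background 27.7% higher, 26.2% lower, 53.9% in either direction), with a median of 0.45 (range -0.75 to 1.95) and 11 changes of at least 2-fold. With doxycycline 32 were higher and 7 lower (background 30.1%, 26.9% and 57%), with a median of 0.56 (-0.54 to 2.02) and 9 of at least 2-fold. For the other 1211 fibroblast-high probes the medians were 0.86 without and 0.01 with doxycycline, with 570 and 345 changes of at least 2-fold. Of all 33099 probes tested, 2653 changed by at least 2-fold without doxycycline and 3013 with it. By day 3, 27 of the 48 were already higher and 4 lower than on day 1 without doxycycline (background 21.1% and 19.8%, 40.8% in either direction), and 27 higher and 6 lower with it (28.3% and 21.2%, 49.5% in either direction).

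The same probes moved with time in both kinds of culture: 29 rose with and without doxycycline, 6 fell in both, 1 went in opposite directions, 6 were called in one and 6 in neither. Over all 33099 probes tested these counts were, in the same order, 4966, 4882, 2777, 11479 and 8995. For the other 1211 fibroblast-high probes they were 412, 91, 364, 299 and 45. The median absolute difference between the 2 changes was 0.19, against 0.92 for the other fibroblast-high probes and 0.24 for all probes. This likeness is set in part by the choice of probes, which required like doxycycline and control levels on day 1 and on day 6 in the cultures without tamoxifen, so nothing is read from it. The difference between the 2 changes, tested after seeing the data, was called in 8 of 48 upwards and 7 downwards (background 24% and 21.5%, 45.5% in either direction).

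The largest rise was that of Z00030496-1. In Dox+Tmx+ cultures it read -0.70 and -0.68 on day 6, against -2.63 and -2.79 on day 1 (log2 change 2.02, SE 0.08, limma adjusted p = 1.26e-16). In Dox-Tmx+ cultures it read -0.57 and -0.69 on day 6, against -2.50 and -2.66 on day 1 (1.95, SE 0.08, limma adjusted p = 3.62e-16). On day 3 its 4 Tmx+ arrays lay between, from -1.76 to -1.58. By day 6 it was near the primary MEF arrays labelled Tmx+, which read -0.47 and -0.48 (ZERT2) and -0.62 and -0.53 (wild).

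Z00019202-1 and Z00074801-1 followed. Z00019202-1 read 1.27 and 1.26 in Dox+Tmx+ cultures of day 6, against -0.12 and -0.02 on day 1. In Dox-Tmx+ cultures it read 1.23 and 1.32 on day 6, against -0.42 and -0.50 on day 1, so the change was larger without doxycycline (1.74, SE 0.06) than with it (1.34). The gap between them is the doxycycline difference of day 1 described above. Z00027602-1, the probe with the largest gap to pluripotent cells, read 2.05 and 1.97 in Dox+Tmx+ cultures of day 6, against 0.60 and 0.66 on day 1 (1.38, SE 0.09, limma adjusted p = 2.4e-12). Z00012009-1 rose by 1.38 in the same comparison and Z00074801-1 by 1.53 without doxycycline.

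Few probes went down with time. Z00017386-1 read 1.12 and 1.07 in Dox+Tmx+ cultures of day 6, against 1.36 and 1.40 on day 1 (-0.28). In Dox-Tmx+ cultures it read 0.81 and 0.92 on day 6, against 1.60 and 1.64 on day 1 (-0.75, SE 0.05, limma adjusted p = 6.08e-13). In both it moved towards the primary MEF arrays, which lay between 0.53 and 0.86. Z00026802-1 fell by 0.70 and Z00063889-1 by 0.55 without doxycycline, but their 2 day 6 arrays lay far apart (1.99 and 1.33, and 1.62 and 1.10). With doxycycline Z00061377-1 fell by 0.54, Z00025552-1 by 0.46 and Z00026802-1 by 0.44; the second missed the threshold in Agilent's own ratio (adjusted p = 0.0562) and without background replacement (0.185). The last missed it without Dox+Tmx+ day 6 replicate 1 (adjusted p = 0.0889) and without Dox+Tmx+ day 1 replicate 1 (0.0514).

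Secondary MEFs started lower than primary MEFs in most of the 48 probes. The probes were chosen for a high level in the Tmx- arrays of the same primary lines. Lower levels in other cultures therefore follow in part from the choice, and the calls and p-values below carry that limit. In day 1 Dox-Tmx+ secondary MEFs, 6 were higher and 33 lower than in Tmx+ primary MEFs (background 31.4% higher, 34.7% lower, 66.1% in either direction), with a median of -0.38 (range -3.29 to 0.99) and 13 differences of at least 2-fold. The other 1211 fibroblast-high probes had a median of -1.02, with 682 differences of at least 2-fold. Of all 33098 probes tested, 3659 differed by at least 2-fold. These groups differ in clone, transgenes, medium and slide, which cannot be told apart, and their protocols do not all mention tamoxifen. On day 6 without doxycycline 18 were higher and 17 lower than in primary MEFs (background 23.6% and 27.6%, 51.2% in either direction), with a median of 0.02. With doxycycline 16 were higher and 17 lower (34.6% and 33.7%, 68.3% in either direction), with a median of -0.07, against -1.12 for the other 1211.

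The lowest 5 on day 1 were Z00068002-1 (-3.29), Z00074801-1 (-2.26), Z00030496-1 (-2.05), Z00024629-1 (-1.79) and Z00019202-1 (-1.77). Z00074801-1 read -1.05 and -1.03 in day 1 Dox-Tmx+ secondary MEFs, against 1.02 and 1.19 in ZERT2 and 1.39 and 1.27 in wild primary MEFs labelled Tmx+ (SE 0.05, limma adjusted p = 3.42e-21). Among those highest, Z00063889-1 read 1.94 and 1.89 in secondary MEFs, against 1.47 and 1.61 in ZERT2 and 0.37 and 0.27 in wild primary MEFs (0.99, SE 0.09, limma adjusted p = 3.45e-10). Z00017386-1 was higher by 0.93 and Z00078172-1 by 0.51. On day 6 with doxycycline Z00009515-1 was higher than in primary MEFs (log2 difference 1.14) and Z00074801-1 lower (-1.12).

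Between the 2 primary lines, 10 of 48 were higher and 6 lower in ZERT2 than in wild MEFs labelled Tmx+ (background 9.14% higher, 10% lower, 19.1% in either direction), with a median of 0.03. No 2 of these groups shared a slide, and the protocols mention tamoxifen for the ZERT2 arrays only. Line, slide and tamoxifen therefore cannot be told apart. Only Z00063889-1 differed by at least 2-fold (1.23, SE 0.10, limma adjusted p = 2.75e-09). Z00031528-1 read 1.50 and 1.50 in ZERT2 and 1.96 and 2.10 in wild MEFs (-0.53, SE 0.09, limma adjusted p = 6.75e-05). In the authors' table its difference was -0.60 (limma adjusted p = 6.39e-05). The sign turned without background replacement (0.10, adjusted p = 0.813), a setting that failed on 2 arrays in earlier work on these files. Z00027602-1 and Z00025710-1 were higher by 0.35 each, and Z00019696-1 (-0.34) and Z00004700-1 (-0.33) lower. The call of Z00027602-1 was lost in Agilent's own ratio (adjusted p = 0.215), in the authors' table (0.0563) and without ZERT2 replicate 1 (0.116). That of Z00025710-1 was lost in Agilent's own ratio (adjusted p = 0.0772) and without background replacement (0.06, adjusted p = 0.742). That of Z00004700-1 was lost under 6 alternatives (adjusted p 0.058 to 0.326). In Agilent's own ratio 5 of the 48 were higher and 5 lower between these lines.

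Between pluripotent lines, 3 of 48 were higher and 7 lower in iPS than in ES cells (background 2.94% higher, 5.18% lower, 8.12% in either direction), with a median of -0.05. The choice used the mean of these 4 arrays and not the difference between the lines. Agilent's own ratio called 7 higher and 15 lower and the authors' log10 values gave 7 and 20, while 2 and 4 were called without ES replicate 2. Z00004700-1 read -3.14 and -3.56 in iPS and -2.37 and -2.47 in ES cells (-0.93, SE 0.11, limma adjusted p = 2.17e-06). Z00063889-1 was higher by 0.55 and Z00017386-1 by 0.29, while Z00078172-1 (-0.54) and Z00036577-1 (-0.40) were lower. Day 6 Dox+Tmx+ cultures stood 3.26 above iPS cells at the median, with 47 of 48 higher and Z00068002-1 lower (-0.19), beside a background of 41.7% higher and 32.1% lower (73.8% in either direction). This difference is close to the one used in the choice and is given as a description.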

How the data were processed

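The deposited files were 36 scanner files and 1 series matrix. Per the file headers, spots were read by Agilent Feature Extraction 9.5.1.1. The authors deposited mean spot and median local background intensity for each dye, without normalization. The deposited log10 ratio of Feature Extraction was an alternative. The deposited series matrix chose the probes. Its values read as log10 sample brightness (correlation with the sample channel 0.989 to 0.996, medians 2.37 to 2.46); how they were adjusted is not given in the sources used here. For the 48 probes, deviations from a probe's mean correlated at 0.997 with those of Feature Extraction's ratio. Sample RNA was in Cy3 and the reference in Cy5, per the labels, with no dye swap.

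Local backgrounds marked as outliers were replaced by the array median (1.43 to 6.09% of spots), followed by normexp (offset 50), loess and averaging of spots. Probes well above background on both arrays of at least 1 group were kept (33099 of 42006). Limma 3.58.1 in R 4.3.3 fitted 1 mean per group to all 36 arrays, two-sided, after tests on simulated data. The number of arrays limits precision. The probes and lists were chosen with earlier results of these data known. Probes are named by largest gap, distance to a threshold, largest called change with groups that do not overlap, or level in secondary MEFs. Gene lists and cell markers could not be applied, since no probe could be named. Alternatives were other background corrections, Feature Extraction's ratio, the matrix, no filter, fewer arrays, replicate or slide blocks and each replicate left out. Across 15 pairs of groups, same-numbered arrays gave correlations of -0.26 to 0.53, and no consistent pairing was found.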

Additional observations from a re-analysis of the deposited data

Results flagged for a closer look

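The change of day 6 against day 1 differed between Dox+Tmx+ and Dox-Tmx+ cultures in 15 of the 48 probes, by limma's test of the difference itself (adjusted p under 0.05), a comparison added after seeing the data. Of all probes tested, 45.5% were called (24% higher, 21.5% lower), so a share of 15 in 48 is below the background. The choice held doxycycline effects small on day 1 and on day 6 in Tmx- arrays of the same slides. A low share therefore follows in part from the choice, and nothing is read from it. The difference is the change with doxycycline minus the change without it. It was negative in 7 probes: Z00017812-1 (-0.54), Z00019202-1 (-0.40), Z00061377-1 (-0.35), Z00017717-1 (-0.35), Z00074801-1 (-0.34), Z00048043-1 (-0.32) and Z00049789-1 (-0.26). It was positive in 8: Z00063889-1 (0.48), Z00017386-1 (0.47), Z00025651-1 (0.47), Z00015096-1 (0.43), Z00009515-1 (0.31), Z00035586-1 (0.29), Z00030233-1 (0.28) and Z00025710-1 (0.28).

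Z00015096-1 was the one probe called in opposite directions. It read 1.08 and 1.09 in Dox+Tmx+ cultures of day 6 against 0.80 and 0.84 on day 1, and 1.01 and 0.87 in Dox-Tmx+ cultures of day 6 against 1.07 and 1.13 on day 1. Z00017812-1 read 2.99 and 2.90 on day 6 against 3.27 and 3.34 on day 1 with doxycycline, and 3.48 and 3.36 against 3.27 and 3.21 without it; in the series matrix its difference was -0.15 (adjusted p = 0.575). For Z00063889-1 the 2 Dox-Tmx+ arrays of day 6 lay apart (1.62 and 1.10). Each day and doxycycline state lay on its own slide, so slide and the difference cannot be told apart.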

How the results depend on the processing

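Of 762 values of named probes under the alternatives, 703 kept direction and side of the threshold, 52 lost their call and 7 reversed. The reversed ones were Z00023409-1 under doxycycline in tamoxifen cultures (-0.079 on day 3 and -0.0491 on day 6 in Feature Extraction's ratio, -0.0789 and -0.0492 in the series matrix), Z00024629-1 on day 6 (-0.0828 and -0.0829) and Z00031528-1 between ZERT2 and wild MEFs (0.0965 without replacing outlying local backgrounds). The causes were not tested. Without that replacement 11 probes in place of 20 were called for doxycycline on day 3, while tamoxifen beside doxycycline had 6 calls in place of 11. Feature Extraction's ratio called 10 between ZERT2 and wild MEFs in place of 16, 22 between iPS and ES cells in place of 10, and 9 for the difference of the time changes in place of 15. The matrix called 27 between iPS and ES cells and 1 for tamoxifen without doxycycline in place of 0. Slide as a random block called 8 for doxycycline over the 3 days in place of 28. A band of 0.05 gave 9 probes and one of 0.15 gave 117. The rule on scanner ratios gave 43 probes, 27 of them among the 48.

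Leaving out each replicate gave 14 to 19 calls for doxycycline on day 1, 14 to 17 on day 3, 16 to 26 on day 6 and 24 to 31 over the 3 days. It gave 8 to 12 for tamoxifen beside doxycycline and 0 to 13 without it (13 without Dox-Tmx+ day 6 replicate 1). Day 6 against day 1 gave 37 to 39 with doxycycline and 35 to 39 without, and their difference 11 to 20. Secondary against primary MEFs gave 34 to 42, ZERT2 against wild 12 to 13, and iPS against ES 6 to 9 (6 without ES replicate 2). With the replicate number as a block the counts were the same as without it (22 for doxycycline on day 6, 39 for secondary against primary MEFs), except 14 in place of 15 for the difference of the time changes. Crossed replicate numbers, tried after seeing the data where same-numbered arrays deviated in opposite ways, gave 23, 39 and 16 calls for doxycycline on day 6, time without doxycycline and ZERT2 against wild.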
